A study of Homo sapiens with 15 samples.

Results

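The genes described here are 10 whose transcript moved one way from the start of a CDK2 knockdown at an earlier time and the other way at a later time: CHTF18, RAD9A, STAG3, ADD3, ARG2, ARPIN, ABCA5, NDRG4, QPRT and IDS. They were picked from values of these same arrays, so their changes from 0 h are given as a description. Where a change is said to pass or miss the threshold, the threshold is that of the fit used here. It was applied to the arrays from which the genes were picked, so passing it is no evidence for the change. In this fit 25 genes met the rule of opposite changes, and why these 10 were taken is not given here. In all, 27 of 54675 probe sets carried the symbol of 1 of these genes alone. Of these, 23 passed a filter on dim values, and the brightest for each gene was used as its measure, 1 of 11774 genes so measured. The cells were IMR32, an established neuroblastoma line, here as a single clone that carries a tetracycline repressor under a CMV promoter and, under that repressor's control, a hairpin against nucleotides 546 to 566 of the CDK2 mRNA. Doxycycline at 100 ng/ml releases the hairpin. RNA was taken at 0, 8, 24, 48 and 72 h, with 3 arrays per time, and all groups share the clone, the repressor and the hairpin construct, so that they differ by time after doxycycline alone. The labels give the times with no unit, and hours were taken from what is known of the study. No group kept without doxycycline to the later times, and none with another hairpin, was analysed here. Time in culture, doxycycline and loss of CDK2 therefore cannot be told apart.

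CDK2 is a kinase that, with cyclins E and A, drives cells into and through S phase, when the genome is copied and sister chromatids are tied together. CHTF18, RAD9A and STAG3 encode parts of the machinery that loads and forms rings around DNA: a subunit of a clamp loader, a subunit of the checkpoint clamp that signals damage at forks, and a cohesin subunit best known from meiosis. The other 7 genes have roles outside the cell cycle. ADD3 is an adducin of the spectrin membrane skeleton and ARPIN an inhibitor of the Arp2/3 actin nucleator. ARG2 is the mitochondrial arginase, QPRT makes an NAD precursor from the tryptophan product quinolinate, and ABCA5 is a lipid transporter of late endosomes and lysosomes. IDS removes sulfate from glycosaminoglycans in the lysosome, and NDRG4 is a cytoplasmic protein of neurons and heart.

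CDK2 itself averaged 231.7 ± 16.3 intensity units at 0 h and then 94.5 ± 5.56, 80.4 ± 7.72, 48.6 ± 7.36 and 30.1 ± 9.90 at the later times in order (SD, n = 3 each). The median signal of an array lay between 15.1 and 20.5 and averaged 16.3, 16.7, 17.6, 18.5 and 18.9 from the first time to the last. Of 8 markers of noradrenergic neuroblastoma, 7 had a probe set of their own and 6 passed the filter, among them GATA3 and MYCN, and TH, the first enzyme of catecholamine synthesis, read 9.5 or less on every array. Summed over each list, the neuroblastoma markers read 11150 to 12110 at 72 h and 9184 to 9694 at 0 h. The sum of 7 fibroblast markers was 633.0 to 918.0 at 72 h and 262.2 to 467.2 at 0 h. In that list 3 genes passed the filter. LUM was at 346.3 at 72 h against 13.7 at 0 h and so carried most of the rise in the sum, PDGFRB was at 77.4 against 42.5, and COL1A1, the brightest at 0 h, was at 300.9 against 289.3, while COL1A2, COL3A1, DCN and FAP stayed at 27.6 or less. Immune, endothelial and epithelial markers had 1 gene each past the filter and sums of at most 79.2, 67.4 and 62.2. The part of these shifts in the changes described next was not tested, and in bulk RNA fewer cells of a type cannot be told from less RNA per cell.

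By the fit used here (limma on log2 of the signal plus 16, with adjusted p below 0.05 as the threshold), 25 of 11774 genes, 0.212%, passed the threshold in opposite directions from 0 h at 2 times. Of these, 18 were higher and then lower (0.153%) and 7 lower and then higher (0.0595%). The 10 genes are 8 of the first kind and 2 of the second. With the replicate number as a block the 25 became 58 and included all 25. Without 0 h replicate 1, 0 h replicate 3 or 24 h replicate 1 the number was 10, 9 and 16. All these contrasts share the 3 arrays of 0 h.

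**Figure D1:**
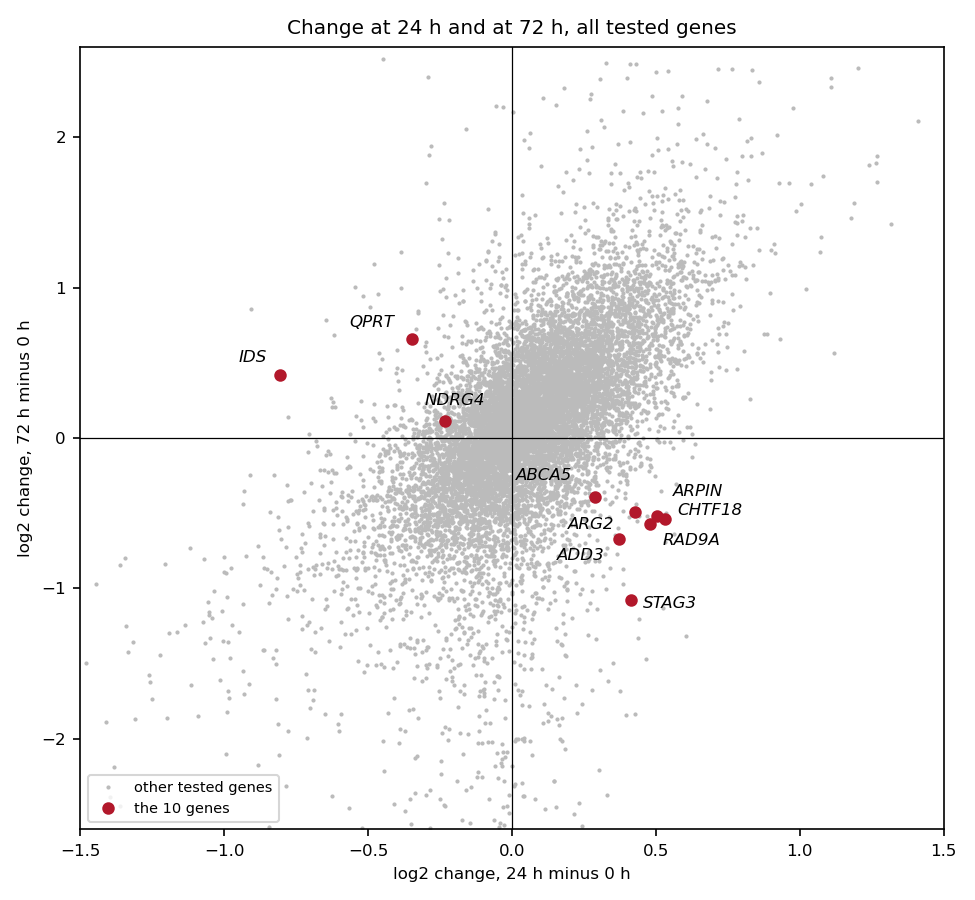
Log2 change from 0 h at 24 h (horizontal) and at 72 h (vertical) for the 11774 tested genes, each a point, with the 10 genes in red; 75 genes lie outside the plotted range. Both axes use the same 3 arrays at 0 h, 7 of the 10 genes lie at lower right, QPRT, IDS and NDRG4 at upper left, and the 8 h rise and 48 h fall for which NDRG4 was picked are not plotted.

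At 24 h, 7 of the 10 genes were past the threshold as higher, where 7.74% of all genes were, and 2 as lower (5.72% of all genes). At 72 h, 2 were higher (32.8% of all genes) and 7 lower (22.7%). At 48 h, 1 was higher (26.3%) and 4 lower (17.7%), and at 8 h NDRG4 alone was higher (0.0934%) and 0 were lower (0.357%). The 3 arrays of a time lay all above those of 0 h for 7 of the 10 genes at 8 h and 7 at 24 h, 1 at 48 h and 2 at 72 h, as in 10.3%, 20.5%, 34.1% and 36.3% of all genes. They lay all below for 0, 3, 4 and 7 genes at the same times, as in 5.54%, 14%, 22.5% and 25.1% of all genes. These contrasts chose the genes, so nothing is read from the counts. The median change of the 10 was 0.21, 0.39, -0.14 and -0.51 at 8, 24, 48 and 72 h, beside 0.02, 0.05, 0.08 and 0.10 for all genes. The weaker of a gene's 2 opposite changes was 0.27 (NDRG4) to 0.53 (CHTF18) on the log2 scale. Nearest the threshold by adjusted p, on its inner side, lay NDRG4 at 8 h (0.40), RAD9A at 24 h (0.48) and CHTF18 at 48 h (-0.38). Nearest on its outer side lay ABCA5 at 48 h (0.19), ADD3 at 48 h (-0.17) and NDRG4 at 24 h (-0.23). A further 251 genes had opposite signs at 2 times with both changes at least as large as the smallest of the 10, without passing the threshold at both.

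**Figure D2:**
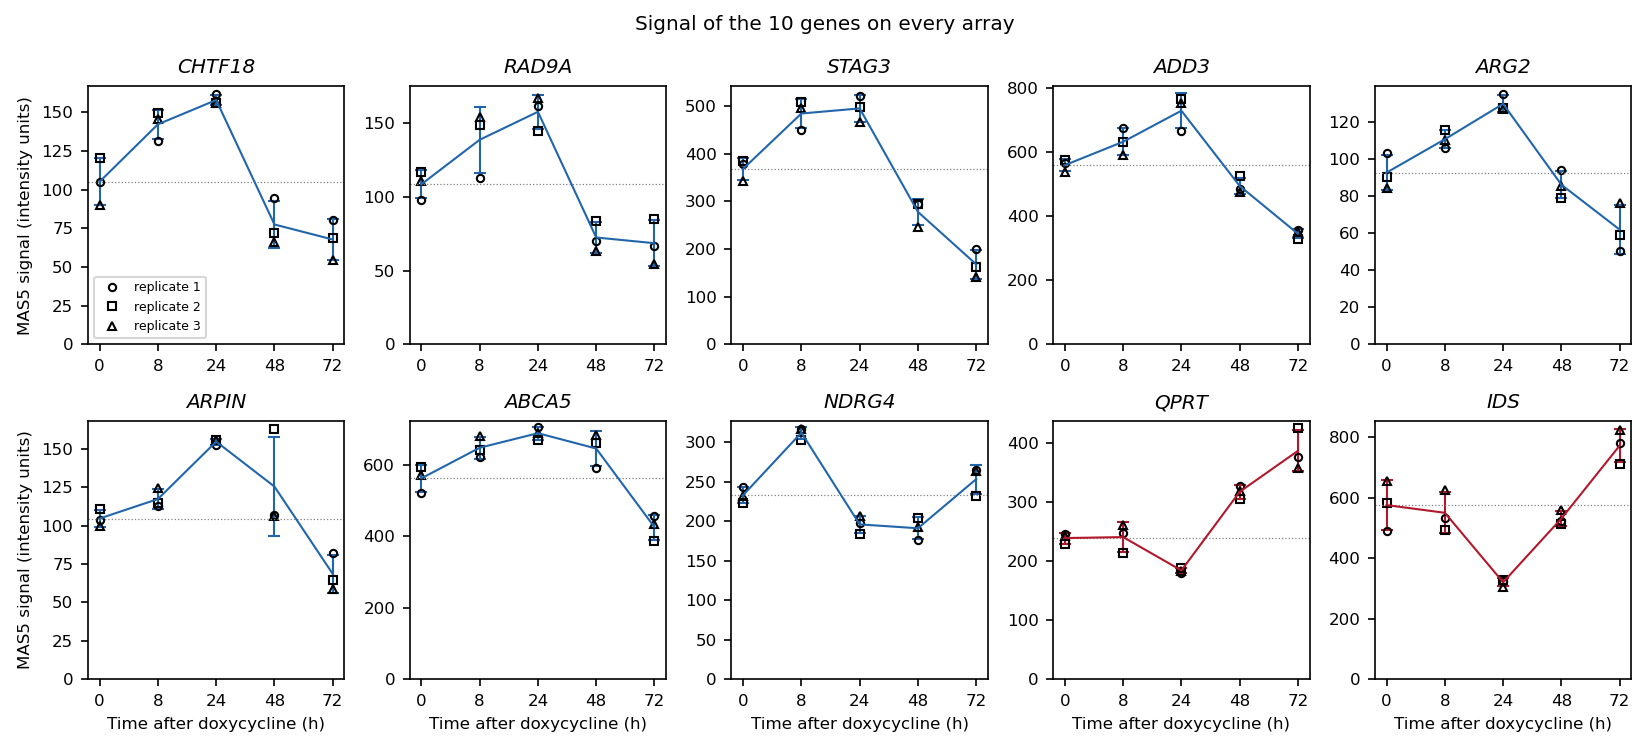
MAS5 signal (vertical, linear, from 0, a scale per gene) of the brightest probe set of each gene on all 15 arrays against time after doxycycline (horizontal, times evenly spaced, in hours); symbols are replicates, lines join the means, bars are SD (n = 3) and the dotted line is the 0 h mean. The means of the 8 genes in blue lie above the dotted line before they lie below it; those of the 2 in red lie below it at 24 h and above it at 72 h.

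The 3 genes of DNA-bound rings, CHTF18, RAD9A and STAG3, had like courses: above the start at 8 h and 24 h, below it at 48 h and 72 h. CHTF18, the clamp loader subunit that pairs with DSCC1 and CHTF8, read 105.0, 120.3 and 89.9 intensity units at 0 h, 131.7, 149.4 and 145.4 at 8 h, 161.6, 156.3 and 155.8 at 24 h, 94.4, 71.9 and 66.0 at 48 h, and 80.2, 68.8 and 54.2 at 72 h. All arrays of 8 h and 24 h lay above those of 0 h and all of 72 h below them, while 1 array of 48 h reached into the 0 h range. Its log2 changes from 0 h were 0.39, 0.53, -0.38 and -0.54 at 8, 24, 48 and 72 h (SE 0.13 each). Most of the turn came between 24 h and 48 h, a step of -0.91, with -0.16 added between 48 h and 72 h. The direction at 24 h and 72 h was the same in each of 15 fits that left out 1 array, and only without 0 h replicate 3 did the 24 h change, then 0.44, miss the threshold.

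RAD9A, the subunit that gives the RAD9-RAD1-HUS1 clamp its signalling tail, read 98.2, 117.1 and 110.6 at 0 h, 113.0, 148.9 and 154.4 at 8 h, 161.7, 144.6 and 167.0 at 24 h, 70.2, 83.7 and 63.5 at 48 h, and 66.4, 85.0 and 54.4 at 72 h. The 24 h arrays were all above and the 48 h and 72 h arrays all below the 0 h arrays, and 8 h overlapped through its replicate 1. The log2 changes were 0.30, 0.48, -0.50 and -0.57 (SE 0.14 each). The turn again fell between 24 h and 48 h, at -0.98, with -0.07 from 48 h to 72 h. The 24 h change stayed between 0.42 and 0.54 with 1 array left out, but missed the threshold without any 1 of the 0 h arrays and without 24 h replicate 1 or 3. With the arrays centred on their medians it was 0.42 and also missed it. A further probe set that names RAD9A together with another locus was not used.

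STAG3 read 379.5, 384.1 and 342.3 at 0 h, 450.3, 508.9 and 495.6 at 8 h, 521.6, 499.0 and 466.3 at 24 h, 294.5, 294.3 and 245.8 at 48 h, and 200.9, 162.0 and 140.7 at 72 h. No later array overlapped the 0 h range at any time. The log2 changes were 0.38, 0.41, -0.39 and -1.08 (SE 0.11 each), the last the largest fall among the 10 genes. Unlike the steps of CHTF18 and RAD9A, its step from 48 h to 72 h (-0.69) was nearly as large as that from 24 h to 48 h (-0.80); the difference between genes was not tested. The 24 h change missed the threshold without 0 h replicate 3 (0.36) and without 24 h replicate 1 (0.38). STAG3 has pseudogene copies on the same chromosome, and whether its probe set also reads them was not tested.

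Across the 15 arrays the log2 values of CHTF18 correlated with those of RAD9A at r = 0.930 and with those of STAG3 at r = 0.935. RAD9A and STAG3 correlated at 0.889, and STAG3 correlated at 0.95 with ADD3, a gene of another role. The genes were picked for a like shape on shared arrays, so these values describe the likeness and no more. The promoters of CHTF18, RAD9A and STAG3 are printed because these genes share a role in rings around DNA and had like courses. Each window runs from 250 bases before to 50 after a transcript start in RefSeq (GRCh38.p14), and capitals mark matches on either strand to CCAAT, the E-box CACGTG, the E2F-type cores TTCCCGC and TTGGCGC, and TTTGAA, the core of the cell-cycle homology region.
CHTF18, chr16:788370-788669, plus strand: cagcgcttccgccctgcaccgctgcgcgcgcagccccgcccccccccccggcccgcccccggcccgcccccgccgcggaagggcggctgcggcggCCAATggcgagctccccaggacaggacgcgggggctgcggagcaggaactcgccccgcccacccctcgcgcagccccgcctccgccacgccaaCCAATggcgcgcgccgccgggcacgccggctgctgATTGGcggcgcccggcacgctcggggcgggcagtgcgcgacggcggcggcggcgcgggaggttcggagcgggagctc
RAD9A, chr11:67391736-67392035, plus strand: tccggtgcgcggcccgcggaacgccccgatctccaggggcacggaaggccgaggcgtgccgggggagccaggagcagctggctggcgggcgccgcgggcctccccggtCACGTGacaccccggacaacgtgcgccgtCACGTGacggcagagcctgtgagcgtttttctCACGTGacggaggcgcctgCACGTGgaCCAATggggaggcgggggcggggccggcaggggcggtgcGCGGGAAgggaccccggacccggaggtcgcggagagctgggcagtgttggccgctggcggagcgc
STAG3, chr7:100177668-100177967, plus strand: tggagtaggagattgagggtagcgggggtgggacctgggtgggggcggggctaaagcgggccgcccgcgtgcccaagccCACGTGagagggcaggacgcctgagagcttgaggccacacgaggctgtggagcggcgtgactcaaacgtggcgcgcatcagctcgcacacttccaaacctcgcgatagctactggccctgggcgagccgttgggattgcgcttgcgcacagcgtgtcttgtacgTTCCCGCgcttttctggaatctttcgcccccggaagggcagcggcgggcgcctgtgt
CHTF18 held CCAAT at 3 places, as 3.26% of 35116 windows of that length did, and none of the other motifs. RAD9A held CACGTG at 4 places, found in 0.0142% of windows (5 of 35116), CCAAT at 1 (34.6% of windows) and TTCCCGC at 1 (6.55%). The STAG3 window shown held CACGTG at 1 place (7.26%) and TTCCCGC at 1, and a start listed further upstream held CCAAT at 2 (10.8%). The motifs were chosen with these sequences in view, and a match is a run of letters, not a bound site. Of the 18 windows of the 10 genes, TTCCCGC was in 3 (RAD9A, STAG3 and ARPIN, 6.55% of all windows) and CCAAT in 7, of 5 genes (34.6%). CACGTG was in 3, of 2 genes (7.26%), TTTGAA in 1 (15.2%) and TTGGCGC in 0 (3.04%). The windows of ADD3 held none of the motifs.

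ADD3 and ARG2 were also above the start at 8 h and 24 h and, on average, below it at 48 h and 72 h, with changes at 48 h of -0.17 and -0.09. ADD3, which caps actin at spectrin junctions, read 565.2, 573.4 and 536.2 at 0 h, 674.7, 629.4 and 589.7 at 8 h, 665.8, 765.5 and 753.1 at 24 h, 483.4, 523.4 and 473.7 at 48 h, and 354.8, 329.1 and 349.7 at 72 h. Every time point stood clear of the 0 h arrays, on the high side at 8 h and 24 h and on the low side at 48 h and 72 h. Its log2 changes were 0.17, 0.37, -0.17 and -0.67 (SE 0.08 each). With 1 array left out the 24 h change lay between 0.34 and 0.43 and the 72 h change between -0.70 and -0.64. ARG2 read 103.0, 90.4 and 84.4 at 0 h, 106.1, 115.7 and 110.0 at 8 h, 135.0, 127.2 and 126.8 at 24 h, 93.9, 79.1 and 85.2 at 48 h, and 50.2, 58.9 and 76.4 at 72 h. The 8 h and 24 h arrays were all above and the 72 h arrays all below those of 0 h, and 48 h overlapped. Changes of ARG2 were 0.22, 0.43, -0.09 and -0.49 (SE 0.12 each). With 1 array left out the 24 h change lay between 0.37 and 0.49 and missed the threshold without 0 h replicate 2 or 3 and without each of the 24 h arrays in turn. It also missed it with the arrays centred on their medians (0.37) or quantile normalised (0.35).

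ARPIN and ABCA5 held above the start, on average, through 48 h and dropped below it between 48 h and 72 h. ARPIN read 103.4, 110.5 and 99.8 at 0 h, 112.6, 114.8 and 124.4 at 8 h, 152.5, 155.5 and 156.0 at 24 h, 107.2, 162.9 and 106.2 at 48 h, and 82.4, 64.8 and 58.4 at 72 h. The 48 h replicate 2 array stood above the 24 h arrays while the other 48 h arrays lay within the 0 h range. Log2 changes were 0.14, 0.50, 0.21 and -0.52 (SE 0.14 each), with a step of -0.73 from 48 h to 72 h. Leaving out 0 h replicate 1 or 3, or any 1 of the 24 h arrays, left a 24 h change of 0.47 to 0.51 that missed the threshold. ABCA5 read 521.8, 594.6 and 571.5 at 0 h, 621.7, 640.8 and 682.5 at 8 h, 706.9, 669.8 and 690.6 at 24 h, 592.3, 662.0 and 684.1 at 48 h, and 456.2, 387.2 and 433.6 at 72 h. All 8 h and 24 h arrays exceeded those of 0 h, 1 array of 48 h fell back among them, and the 72 h arrays were all lower. These changes were among the smallest of the set, at 0.20, 0.29, 0.19 and -0.39 (SE 0.08 each). The 24 h change missed the threshold without 0 h replicate 1 or 3, without 24 h replicate 1 or 3, and with the arrays centred on their medians (0.23).

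NDRG4 turned earliest and came back. It read 243.7, 223.0 and 231.7 at 0 h, 316.7, 302.9 and 316.1 at 8 h, 197.4, 183.8 and 206.1 at 24 h, 176.2, 204.3 and 192.3 at 48 h, and 264.5, 231.8 and 263.1 at 72 h. The 8 h arrays were all above the start, those of 24 h and 48 h all below it, and those of 72 h overlapped it. The log2 changes were 0.40, -0.23, -0.27 and 0.11 (SE 0.08 each), with steps of -0.63 from 8 h to 24 h and 0.38 from 48 h to 72 h. Its place among the 10 depends on single arrays: both its calls, at 8 h and 48 h, held in 3 of 15 fits with 1 array left out, namely without 24 h replicate 3, 72 h replicate 2 or 72 h replicate 3. In those 15 fits the 8 h change was 0.37 to 0.43 and the 48 h change -0.31 to -0.22. With both the 8 h and the 72 h replicate 3 arrays left out, a choice made after the data were seen, the 8 h change was 0.39 and missed the threshold, as the 8 h change did in the fit of every probe set.

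QPRT and IDS went the other way, down at 24 h and up at 72 h. QPRT read 246.3, 228.8 and 242.6 at 0 h, 247.5, 213.5 and 261.6 at 8 h, 180.3, 188.9 and 183.8 at 24 h, 327.9, 305.4 and 319.9 at 48 h, and 377.5, 425.8 and 358.4 at 72 h. The 24 h arrays were all below and the 48 h and 72 h arrays all above the start, with 8 h spread across it. Its changes were 0.01, -0.35, 0.39 and 0.66 (SE 0.09 each), and the 24 h change missed the threshold only without 0 h replicate 1 (-0.33) among the 15 fits with 1 array left out. IDS read 488.1, 582.3 and 654.8 at 0 h, 531.2, 493.7 and 624.1 at 8 h, 325.2, 329.1 and 305.6 at 24 h, 522.4, 511.9 and 558.0 at 48 h, and 780.2, 712.5 and 822.9 at 72 h. The 24 h arrays lay below and the 72 h arrays above every 0 h array, and both 8 h and 48 h fell within the 0 h range. Changes of IDS were -0.06, -0.81, -0.10 and 0.42 (SE 0.10 each), the one at 24 h being the largest earlier change among the 10 genes. With 1 array left out the 24 h change lay between -0.92 and -0.71 and the 72 h change between 0.31 and 0.52. In arrays of 24 h the IDS signal was 0.556 of the 0 h mean and in those of 72 h 1.34 times it.

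For ADD3, ARG2, ARPIN, ABCA5 and IDS the opposite changes rest on 0, 24 and 72 h, so the difference of 48 h and 8 h uses 6 arrays outside those times. It was -0.34 ± 0.08 (SE) for ADD3 and -0.31 ± 0.12 for ARG2, with the 3 arrays of 48 h below the 3 of 8 h in both, as in 21.7% of all genes. The other genes had -0.77 (CHTF18 and STAG3), -0.80 (RAD9A) and -0.67 (NDRG4) with all arrays lower, and 0.38 (QPRT) with all higher, as in 27.9% of all genes. For ARPIN it was 0.06 ± 0.14, for ABCA5 -0.01 ± 0.08 and for IDS -0.04 ± 0.10, and the arrays overlapped. All times had been screened when the genes were picked, so these values too are a description.

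Other probe sets were measured for 6 genes, and these did not all follow the brightest one. The 3 other probe sets of ADD3 had the same signs at 24 h and 72 h, with changes of 0.27 to 0.47 and of -0.59 to -0.29. Their 8 h arrays overlapped those of 0 h, and their 48 h changes were -0.15 to -0.0006. When all 27307 passing probe sets were fitted together, 2 of the 3 were past the threshold as higher at 24 h (4.68% of all probe sets) and 3 as lower at 72 h (19.3%). Both other ARPIN probe sets, with means of 22 to 38 intensity units, had the signs of the brightest at 24 h (0.28 and 0.16) and 72 h (-0.22 and -0.36). The ARPIN set at 0.16 was below the start at 8 h (-0.13) and 48 h (-0.25), where the brightest was at 0.14 and 0.21. Its 48 h arrays all lay below those of 0 h. The dimmer ABCA5 probe set had the signs of its brightest at 24 h (0.13) and 72 h (-0.36). None of these changes passed the threshold. ARG2 on its dimmer probe set was at 0.14 at 24 h and -0.08 at 72 h, with all 4 later groups overlapping 0 h. QPRT read 284.9, 241.9 and 201.8 at 0 h on its other probe set, 266.1, 238.1 and 206.7 at 24 h and 253.1, 277.4 and 231.0 at 72 h. Neither the fall nor the rise was seen there (-0.03 and 0.07). At 0 h and 24 h this other set was the brighter, with means of 242.9 and 237.0 against 239.2 and 184.3. The set used for QPRT led at 8 h (240.9 against 228.1), 48 h (317.7 against 267.4) and 72 h (387.2 against 253.8). Its choice as the brightest thus leaned on the late rise itself. With the mean of a gene's probe sets in place of the brightest, ARG2, ARPIN, ABCA5 and QPRT no longer passed the threshold at 24 h, at 0.29, 0.31, 0.21 and -0.19.

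IDS had 9 other probe sets, of which 5 passed the filter. At 24 h all 5 were on average below the start, at -0.31 to -0.19, none past the threshold, against -0.81 on the brightest. Only the set that was also lower at 72 h had every 24 h array below those of 0 h. On the others the 24 h arrays overlapped those of 0 h through replicate 3. On 1 of them that array read 161.4, above all 0 h arrays (108.1 to 137.2), while on the brightest set it was the lowest of 24 h (305.6). At 72 h, 4 of the 5 were above it, at 0.36 to 0.90, and 3 of these passed the threshold as higher (27.1% of all probe sets). The remaining one was at -0.31, -0.29 and -0.33 at 24, 48 and 72 h. It passed the threshold as lower at 48 h and at 72 h, the latter as 19.3% of all probe sets did. It read 169.7, 165.0 and 170.4 at 72 h and 220.5, 213.2 and 211.7 at 0 h, with no array of 72 h in the 0 h range. In the annotation this set cites a different RefSeq mRNA of IDS than the other set that cites one. The brightest and 2 of the others carry the suffix that Affymetrix gives to sets whose probes may also match other transcripts, and IDS has a pseudogene copy nearby. What that adds to the signal was not tested.

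**Figure D3:**
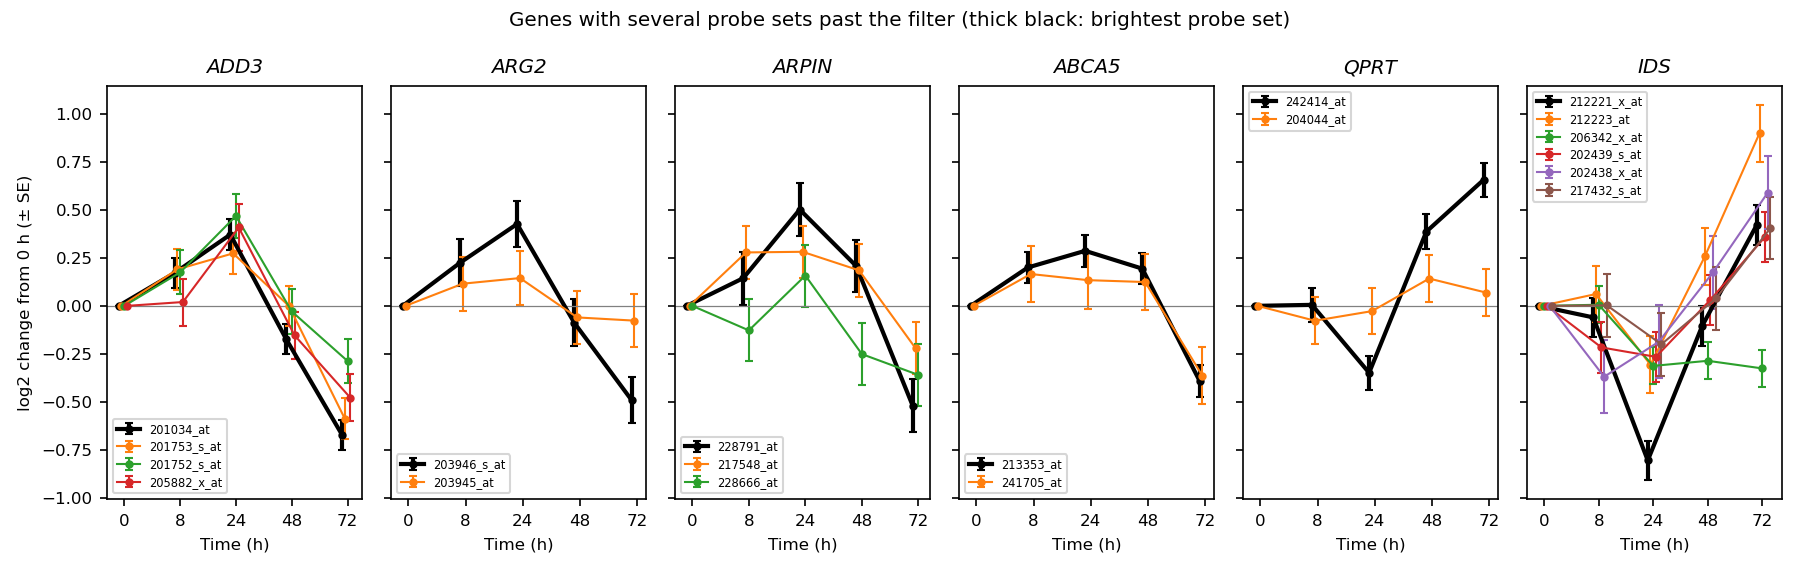
Log2 change from 0 h (vertical, ± SE from the fit of all probe sets, 3 arrays per time) against time (horizontal, hours, evenly spaced) for every probe set past the filter of the 6 genes that have more than 1. The 4 sets of ADD3 lie above 0 at 24 h and below it at 72 h, and the second sets of ARG2 and QPRT stay near 0. Of the 6 IDS sets 1 ends below 0, at -0.33, where the other 5 end above it.

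Among the other tested genes, those most like each of the 10 over the 15 arrays were taken by Pearson's r on log2 values, the top 2 for each. All arrays and times are shared, so r measures a like time course. LIG1, which joins Okazaki fragments, was nearest to both CHTF18 (r = 0.941) and RAD9A (0.950), and it too met the reversal rule, with 0.44 at 24 h and -1.21 at 72 h. ARHGEF39 was next for CHTF18 (0.940) and POLE, the leading-strand polymerase, for RAD9A (0.940). STAG3 was nearest to CCDC150 (0.985) and to IDH2 (0.983), a mitochondrial isocitrate dehydrogenase. ADD3 was nearest to EPS8, an actin-binding protein (0.973), and to TIMELESS, of the replication fork protection complex (0.966). ARG2 was nearest to TPGS2 (0.929) and EPS8 (0.917), ARPIN to C5 (0.916) and the basement membrane protein NID1 (0.904), and ABCA5 to SH3GL3 (0.922) and ATOH8 (0.897). NDRG4 had the loosest match, MAP1A, a microtubule protein of neurons, at r = 0.872, with 0.53 at 8 h and -0.83 at 48 h, then ACIN1 at 0.841. QPRT was nearest to the co-chaperone DNAJA2 (0.948) and to LINC01252 (0.947), and IDS to KAZN (0.908) and EIF3J (0.893). LIG1, TIMELESS, NID1 and KAZN were among the 25 genes of the reversal rule.

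The genes known to work with the 10 were taken from lists and compared with 0 h by the same limma fit, at an adjusted p below 0.05. None of the 9 lists held a further gene that passed in opposite directions. Over all lists 36 genes were higher and 54 lower at 72 h, or 25 and 61 with the arrays centred on their medians. The clamp and cohesin lists held the most lower genes before centring, 16 and 11, so these totals do not stand for each list. The counts of each list stand beside shares over all genes of 7.74% higher and 5.72% lower at 24 h, and 32.8% higher and 22.7% lower at 72 h. Of 19 measured checkpoint clamp and clamp loader genes, 1 was lower and 0 were higher by 24 h. By 72 h the list had 16 lower and 2 higher, with a median of -0.98 against 0.10 for all genes. CHTF18 was at 0.53 and -0.54 and RAD9A at 0.48 and -0.57 at the same times. DSCC1, a partner of CHTF18, was lower at 24 h (-0.37) and at 72 h (-2.48, limma adjusted p = 1.7e-12). CHTF8, the other partner named above, was at 0.15 at 24 h, which missed the threshold, and lower at 72 h (-0.32). CLSPN, a checkpoint mediator, was at -1.96 at 72 h, and the clamp loader subunits RFC2 and RFC5 were at -1.73 and -1.69. Among 16 cohesin genes 1 was lower by 24 h, and by 72 h the count was 11 lower and 3 higher (median -0.38). CDCA5, which protects cohesin in S phase, fell by 2.62 at 72 h, the separase ESPL1 fell by 2.42, its inhibitor PTTG1 fell by 1.87 and the acetyltransferase ESCO2 fell by 1.55.

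In the membrane skeleton list around ADD3, itself at -0.67 at 72 h, 4 of 15 measured genes were higher by 24 h, and by 72 h the count was 9 higher and 3 lower (median 0.42). ANK2, an ankyrin, rose by 1.23 at 72 h, the spectrin SPTBN4 by 1.20 and the actin-capping TMOD2 by 1.15, and EPB41L2 was lower at -1.25. Of 25 Arp2/3 genes 2 were higher and 5 lower by 24 h, and by 72 h the count was 8 and 10 (median -0.11), so that the higher share was near that of all genes. CYFIP2 of the WAVE complex rose by 1.99, and NCKAP1 of the same complex and ARPC5 were lower at -1.18 and -0.60, as was ARPC5L. Both NCKAP1 and ARPC5L were already lower at 24 h, at -1.05 and -0.54, the time at which ARPIN was highest.

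Of 25 arginine and polyamine genes 2 were higher and 4 lower by 24 h, and by 72 h it was 2 and 9 (median -0.13), led by NAGS (-1.02), ASS1, which makes argininosuccinate (-0.54), OAT (-0.53) and the polyamine enzyme ODC1 (-0.50). In the A class of ABC transporters 5 of 11 listed genes were measured besides ABCA5, and 4 of these rose and 0 fell at 72 h, where ABCA5 was at -0.39. ABCA1, the cholesterol exporter, rose by 1.62, ABCA3 by 0.78, ABCA2 by 0.58 and ABCA9 by 0.56. For NDRG4, the relatives NDRG1 and NDRG3 were at -0.46 (adjusted p = 0.047) and 0.21 (0.035) at 72 h. In the kynurenine and NAD list 1 of 13 genes was higher by 24 h, and by 72 h 4 were higher and 2 lower (median 0.24), both under the shares of all genes. NMNAT2, an NAD synthase of axons, rose by 1.26 at 72 h, NADSYN1 by 1.08 and KYAT1 by 0.61, and NADK2 fell by 0.56. Of 12 genes of glycosaminoglycan breakdown 1 was higher by 24 h, and by 72 h 3 were higher and 2 lower (median 0.07), both under the shares of all genes. IDUA, the enzyme that acts after IDS on the same chains, rose by 0.46 at 24 h, when IDS was at its lowest, and by 1.26 at 72 h. SUMF1, which activates sulfatases such as IDS, rose by 0.44 at 72 h, GALNS rose by 0.44 and GUSB was lower at -1.01.

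**Figure D4:**
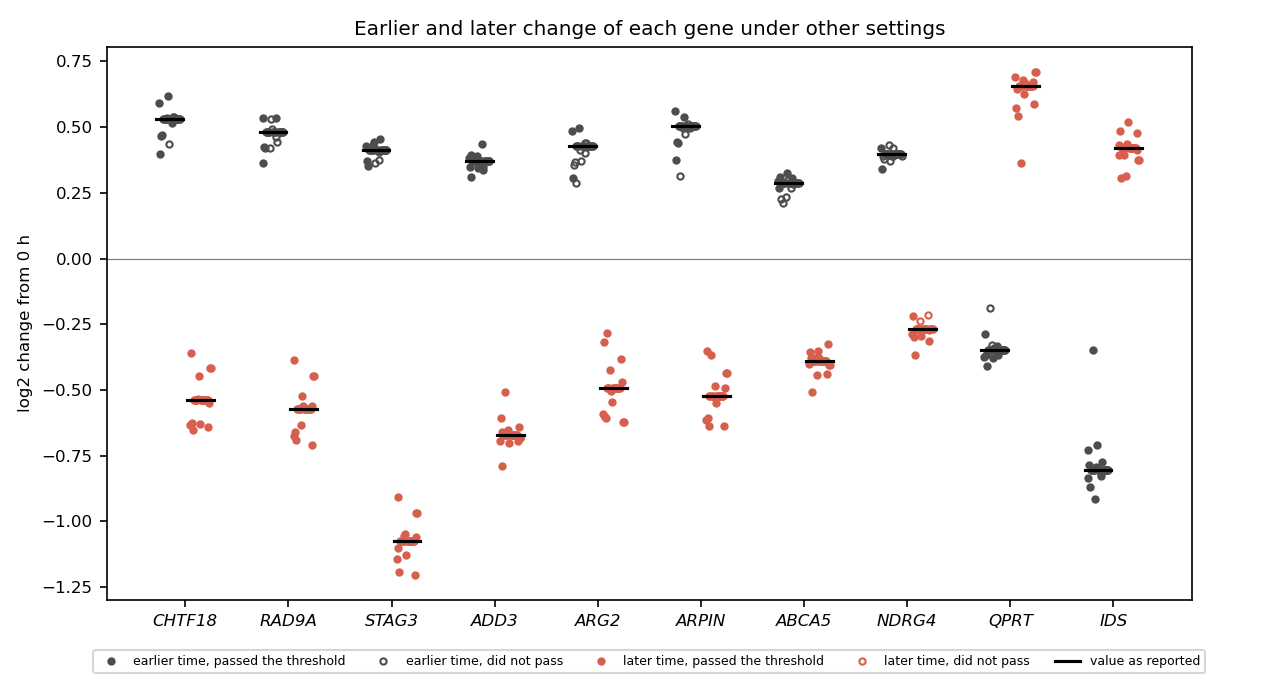
Log2 change from 0 h (vertical) of each gene at its earlier time (grey) and later time (red) of opposite sign, as reported (black bars) and under up to 25 other settings (points), filled where the change passed that setting's threshold. No point crosses 0, and the open points lie mostly at the earlier time.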

How the data were processed

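Per the labels' protocols, cRNA was made with a one-cycle kit out of 4 µg of total RNA. The submitters' processing notes name MAS5 and GCOS and no version of either. The deposited table holds linear signal intensity for 54675 probe sets on 15 arrays, and the mean trimmed by 2% at each end was 100.0 on each array, so values were used as deposited. Detection calls were not used here. Gene names came from the platform annotation of 2016, updated through gene identifiers. A probe set counted if it named 1 gene (41091; 1801 named several, 11721 none, 62 were controls) and its mean of log2(signal + 16) reached the median, a signal of about 16.6, as 27307 did.

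Expression was then fitted with limma 3.58.1 (lmFit, eBayes with trend) in R 4.3.3, all 5 times together, on the brightest probe set of each gene, with Benjamini-Hochberg adjustment over 11774 genes. Genes named are the 10, the 2 genes nearest each by r, up to 4 genes of each list with the greatest 72 h change among those past the threshold at 24, 48 or 72 h, CDK2 and cell type markers. The other 15 genes that met the reversal rule are named in the closing section after their values were seen. CHTF8 was added as a partner of CHTF18 after its values were seen. NDRG1 and NDRG3 are all measured relatives of NDRG4. The genes and lists were chosen with earlier results of these data known. Folds are on the log2(signal + 16) scale and understate changes of dim genes. Nothing in the labels says that the 3 arrays of a time are separate cultures, so p-values and SE measure the spread between these arrays, and their number limits the precision. The 3' to 5' ratio of the control transcripts was 0.974 to 1.07 for GAPDH and 1.10 to 1.35 for ACTB.

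Residuals of arrays with the same replicate number correlated at 0.122 to 0.211 for 48 h with 0 h and at 0.0913 to 0.145 for 24 h with 0 h. They correlated at -0.0782 to 0.102 for 8 h and at 0.0564 to 0.230 for 72 h. No values for arrays of unlike number are given beside these, so a pairing of the arrays is not read from them. Over all times 10 of 15 arrays correlated best with an array of their own number, a hint from the data and not from the design. Alternatives were other pseudocounts (1, 64), scalings, filters and probe set rules, a replicate block, a minimum change, and each array left out. Leaving out the replicate 3 arrays of 8 h and 72 h together was added after the data were seen. Python 3.11.15, pandas 2.3.3 and matplotlib 3.10.9 made tables and figures. Promoter windows are RefSeq's.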

Additional observations from a re-analysis of the deposited data

How the results depend on the processing

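All 20 changes on which the 10 genes were picked kept their sign under each of the 25 other settings run that could measure them (the filter to the brightest 25% dropped ARG2). The number of genes past the threshold in both directions, 25, became 14 with arrays centred on their medians (12 of them among the 25), 58 with the replicate block, 5 with an absolute log2 change of at least 0.5 as well, 51 without the replicate 3 arrays of 8 h and 72 h, and 9 to 29 with 1 array left out. All 10 genes held both calls with the replicate block and with pseudocounts of 1 and 64, 8 with quantile normalisation (not ARG2 and NDRG4), 7 without a filter (not ARG2, NDRG4 and RAD9A), 6 with centring (not ABCA5, ARG2, NDRG4 and RAD9A), 6 with the mean of probe sets, and 2 (CHTF18 and ARPIN) with the minimum change. The block changed no other count by more than 1.5 times. With 1 array left out, calls against 0 h ranged from 20 to 70 at 8 h, 1006 to 1843 at 24 h, 4391 to 5425 at 48 h and 5834 to 6728 at 72 h, and those of partner genes at 72 h from 80 to 93. The minimum change gave 683, 2749 and 3970 calls at 24, 48 and 72 h, and 53 partner calls in place of 90, by its construction. Centring turned 911 higher and 673 lower at 24 h into 457 and 727, 3093 and 2082 at 48 h into 2069 and 2556, and 3861 and 2670 at 72 h into 2735 and 3250. It moved the median change of all genes at 72 h from 0.10 to -0.01, and the cause of the other shifts was not tested. Probe sets near 20 to 40 intensity units lie close to the filter and show little.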

Other observations

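The other 15 genes that passed the threshold in opposite directions at 2 times form no list fixed here and are given by name. Those higher and then lower were E2F7, a repressor of E2F target genes, PPP1R17, LIG1, LOC389765, GPSM2, a spindle orientation protein, TIMELESS, COL2A1, NID1, DCP2 and CYYR1. Those lower and then higher were SFRP1, an inhibitor of Wnt signalling, CBARP, KAZN, ATP7A, a copper transporter, and HS6ST2. The weaker of their opposite changes ran from 0.23 (CYYR1) to 0.62 (SFRP1) on the log2 scale, against 0.27 to 0.53 for the 10 genes.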
